A study of Mus musculus with 3 samples.

Results

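The intestine takes up calcium, magnesium, iron and zinc through a small set of dedicated transport genes, and 10 of these genes were followed here across 3 libraries of mouse pup intestine. The genes were chosen by symbol from the deposited count table, and all 10 are among its 21983 genes. They are Trpm6 for magnesium, then Trpv6, S100g, Atp2b1 and Vdr for calcium, then Cybrd1, Slc11a2, Slc40a1 and Heph for iron, and Slc39a4 for zinc.

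RNA from the intestine of wild-type pups was sequenced as 150 bp paired-end reads, with 1 library per group and no replicates. Control pups were fed by the dam and given PBS. The NEC library stands for a procedure that models necrotizing enterocolitis, a bowel inflammation of newborns: gavage of 33% formula over 96 h, 40 µl at intervals of 4 h, with hypoxia (99.9% nitrogen for 100 s) and then cold (4 °C for 10 min) at intervals of 12 h, plus PBS. The PCI34051+NEC library came from the same procedure with oral PCI34051, an inhibitor selective for the deacetylase HDAC8, at 10 mg/kg per day for 5 days in place of PBS. In all groups the intestine was taken after 96 h. Not stated in the labels are the sex of the pups, the intestinal segment taken, and whether pups were pooled. Feeding, hypoxia and cold differ together between the control and the NEC library, so their parts cannot be told apart.

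Absorption of these metals follows a common plan of entry at the apical membrane, carriage through the enterocyte and exit at the basolateral membrane. Ferrous iron enters through SLC11A2 (DMT1) after reduction by CYBRD1, leaves through ferroportin (SLC40A1), the only known cellular iron exporter, and is oxidised on its way out by hephaestin (HEPH). Calcium enters through TRPV6, is carried by calbindin-D9k (S100G) and is pumped out by ATP2B1, all under the vitamin D receptor, while TRPM6 is the apical magnesium channel and ZIP4 (SLC39A4) the apical zinc importer. In suckling rodents iron absorption is high and only partly under hepcidin control, and much calcium is thought to cross between cells, before vitamin D-dependent transport matures around weaning.

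Where 3 values stand together below, they belong to control, NEC and PCI34051+NEC in that order. Total counts were 15076413, 10650638 and 16497580. Levels are TMM-normalised CPM, the counts of a gene scaled to the size of its library. Log2 folds compare CPM + 1, so that differences of low genes are understated, and a gene is called higher or lower at a 2-fold difference in CPM + 1. Fold ratios carry 95% exact intervals that cover counting error only, so every difference describes these libraries and has no replicate check. The NEC library stood apart: mitochondrially encoded genes took 4.88%, 32.4% and 3.73% of counts, and 4 Y-linked genes, a list added after values were seen, had 2616, 5 and 2780 counts. Epithelium markers summed to 7984, 3581 and 8227 CPM and smooth muscle markers to 1228, 10561 and 1258 CPM. In bulk RNA, fewer cells of a type and less RNA per cell cannot be told apart. For every gene, X-linked or not, a fold against the NEC library cannot be told apart from a difference in sex. The comparison of PCI34051+NEC with control is the one that leaves the NEC library out.

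The intestinal identity of the samples was checked with segment markers. Of 9 colon markers, 6, 6 and 5 were at 0 counts, with Car1, Hoxb13, Hoxd12 and Hoxd13 at 0 in all 3. Lct, the lactase of the small intestine, had 3044, 926 and 12372 counts, and the ileum markers summed to 66.1, 82.1 and 149.9 CPM. The markers of the proximal small intestine summed to 195, 94.7 and 860 CPM, and of these the transcription factor gene Gata4 was at 3.21, 8.95 and 46.4 CPM and Pdx1 at 0 in every library. The part of the sampled segment in the values below, those of PCI34051+NEC against control included, was not tested.

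Iron transport genes are partly controlled after transcription, through a short RNA hairpin called the iron-responsive element, to which iron regulatory proteins bind when iron is low. In a 5′ UTR the bound hairpin blocks translation, and in a 3′ UTR it protects the RNA from decay. The hairpins of 2 members are shown because they set apart the iron importer and the iron exporter, with those of ferritin and the transferrin receptor for comparison. They were found in GENCODE M21 transcripts by a search for the hairpin (an unpaired C, 5 paired bases and the loop CAGTGN, with 1 unpaired base allowed in the 3′ arm), and the loop is in capitals.
Slc40a1 5′ UTR: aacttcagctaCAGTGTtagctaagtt
Slc11a2 3′ UTR: gccatcagagcCAGTGTgtttctatggt
Fth1 5′ UTR: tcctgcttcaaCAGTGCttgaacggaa
Ftl1 5′ UTR: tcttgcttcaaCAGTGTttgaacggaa
Tfrc 3′ UTR: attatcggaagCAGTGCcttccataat

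On mm10 the Slc40a1 hairpin lies on chromosome 1, from 45925466 to 45925492 on the minus strand, and the Slc11a2 hairpin on chromosome 15, from 100395153 to 100395180 on the minus strand. Those of Fth1 (chromosome 19, 9982733 to 9982759), Ftl1 (chromosome 7, 45459780 to 45459806, minus strand) and Tfrc (chromosome 16, 32631220 to 32631246) came out of the same search, Tfrc with 4 in all. Of 46 searched iron genes and members with coding transcripts, 6 held such a hairpin (13.0%), the remaining one being Epas1. Of all 21877 coding genes 85 did (0.389%). The searched genes were chosen mostly for iron handling, which this element is known to regulate, so their larger share is no independent result. The element stands in 1 of 4 coding transcripts of Slc40a1 and in 1 of 6 of Slc11a2. The deposited counts are per gene, so transcripts with and without it cannot be separated. A match is a description of the sequence and not a measured binding site.

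The 2 members with a hairpin were also the members furthest below control in the NEC library. Slc11a2 (ENSMUSG00000023030, chromosome 15, 100387898 to 100425072, minus strand), the apical iron importer, was at 968, 44.5 and 193 CPM, from 15390, 487 and 2934 counts. The NEC library was 21.8-fold below control (19.9 to 23.9), a log2 fold of -4.41 that put it at place 17 from the lowest of 14627 measured genes. With PCI34051 it was 4.33-fold higher than in the NEC library (3.94 to 4.78) and still 5.02-fold below control (4.83 to 5.23). With TMM scaling it thus stood in the order control, PCI34051+NEC, NEC, with each step beyond counting error. Per 100 counts of the epithelium marker Epcam, however, Slc11a2 was lower with PCI34051 (6.89, 6.64 to 7.15) than in NEC (10.996, 9.99 to 12.1). At a TMM-scaled log2 fold of -2.32 against control, Slc11a2 was at place 64 from the lowest of 13652 genes in the comparison that leaves the NEC library out. An exon of the predicted gene Gm5475 overlaps 6.33% of Slc11a2 on the opposite strand, and Gm5475 had 110, 10 and 32 counts.

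Slc40a1 (ENSMUSG00000025993, chromosome 1, 45908068 to 45926523, minus strand), the exporter, was nearly as far below control as Slc11a2 in NEC, but closer to its control level than Slc11a2 with PCI34051. It was at 997, 53.1 and 578 CPM. The NEC library was 18.8-fold below control (17.3 to 20.4; log2 fold -4.21, place 24 from the lowest). The PCI34051+NEC library was 10.9-fold above the NEC library (10.02 to 11.9), at place 15 from the highest of 14410 genes, and 1.72-fold below control (1.68 to 1.77). Because both genes are read from the same libraries, their ratio does not depend on the scaling between libraries. There were 97.2 counts of Slc11a2 per 100 of Slc40a1 in control (95.02 to 99.3), 83.8 in NEC (74.2 to 94.7) and 33.3 with PCI34051 (31.96 to 34.8). The ratio was thus near its control value in NEC, where the intervals just miss each other, and well below it with PCI34051. Macrophages also express Slc40a1 and Slc11a2, and their 8 markers summed to 516, 186 and 234 CPM with Csf1r, which carries most of the sum in control, at 6458, 644 and 2441 counts. Of the 7 measured in NEC against control, 2 were lower, 4 were within 2-fold and Cd163 was higher (0.440, 24.5 and 4.99 CPM). Of all genes 22.9% were lower and 24.2% higher there. The part of macrophages in the values of Slc40a1 and Slc11a2 was not tested.

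Heph (ENSMUSG00000031209, chromosome X, 96455359 to 96574485, plus strand), the basolateral ferroxidase that works with ferroportin, was at 233, 90.5 and 524 CPM. The NEC library was 2.58-fold below control (2.40 to 2.77), and PCI34051+NEC was 5.79-fold above NEC (5.42 to 6.19). The PCI34051+NEC library was also above control, by 2.24-fold (2.16 to 2.33), a log2 fold of 1.16 that was 0.97 with total-count scaling. Of the 4 iron members, Heph alone was 2-fold above control there, Slc11a2 was below it, and the others were within 2-fold. Heph lies on chromosome X, and its folds against the NEC library, as those of every gene, cannot be told apart from a difference in sex. Cybrd1 (ENSMUSG00000027015, chromosome 2, 71117923 to 71142926, plus strand), the duodenal ferric reductase, was low in all 3 libraries, at 8.998, 5.84 and 13.1 CPM from 143, 64 and 199 counts. Its difference between NEC and control was within 2-fold (log2 fold -0.55), and it was 2.24-fold higher with PCI34051 than in the NEC library (1.68 to 3.01). With total-count scaling that last log2 fold was 0.90 in place of 1.04 and no longer past 2-fold.

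**Figure D1:**
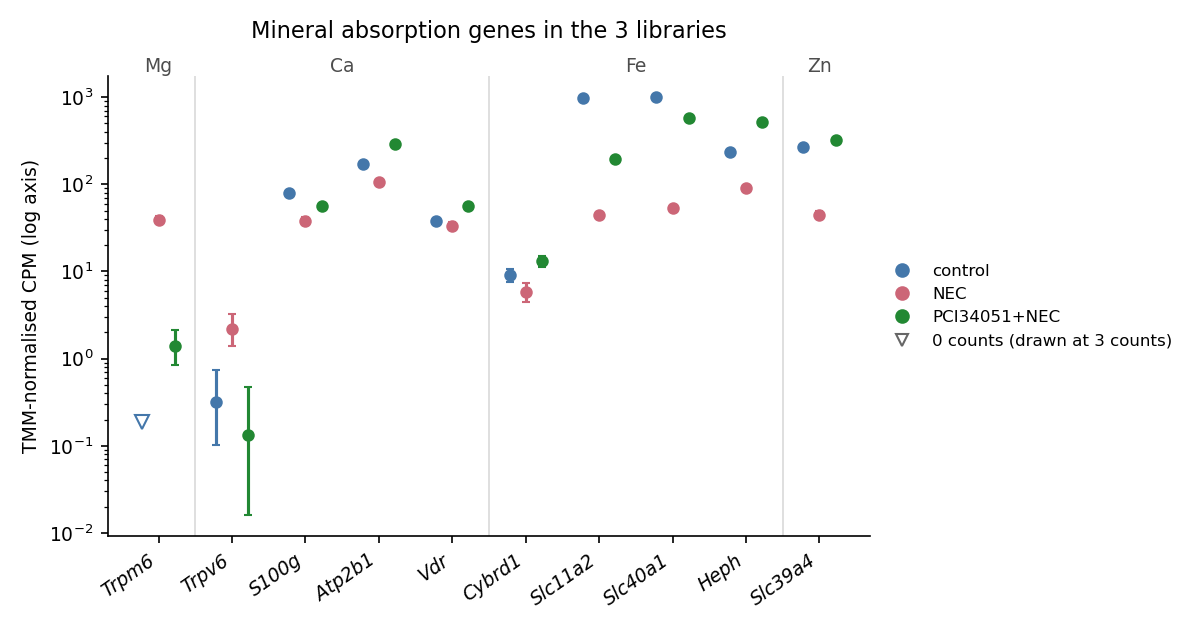
TMM-normalised CPM (log axis) of the 10 genes, 1 point for each of the control, NEC and PCI34051+NEC libraries with its 95% counting interval where wider than the point; the open triangle marks 0 counts, drawn at the floor of 3 counts. Slc11a2 and Slc40a1 stand near 1000 CPM in the control and at 44.5 and 53.1 CPM in the NEC library, while Trpm6 stands at 39.5 CPM in NEC and at 0 and 1.38 CPM in the others.

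Slc39a4 (ENSMUSG00000063354, chromosome 15, 76612383 to 76617384, minus strand), the zinc importer whose human counterpart is mutated in acrodermatitis enteropathica, was at 266, 44.8 and 321 CPM. NEC was 5.95-fold below control (5.42 to 6.55). With PCI34051 it was 7.17-fold higher than in the NEC library (6.54 to 7.89) and 1.205-fold above control (1.16 to 1.26). Slc39a4 was thus low in NEC alone, and its control and PCI34051+NEC levels lay within 2-fold of each other.

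Trpm6 (ENSMUSG00000024727, chromosome 19, 18749983 to 18892511, plus strand), the magnesium channel, went the other way from the iron and zinc genes. It had 0, 432 and 21 counts, or 0, 39.5 and 1.38 CPM. Set against a floor of 3 counts for the control library, the NEC level was 209-fold higher, a value without a counting interval. Its log2 fold of 5.34 was at place 7 from the highest of 14627 genes. The PCI34051+NEC library was 28.6-fold below the NEC library (18.5 to 46.7) and 7.31-fold above the control floor, again without an interval. That difference from control was under 2-fold with a pseudocount of 4 (log2 fold 0.43). Its counts in these 3 libraries thus came mostly from NEC. TRPM6 is known from the kidney and the large bowel. Of 8 kidney markers, a list added after the values were seen, the sum was 17, 35 and 5 counts. Aqp2 and Kap were at 0 in every library, while Slc12a3 (2, 21 and 3 counts), Slc12a1 (0, 8 and 0) and Nphs1 (0, 5 and 0) were highest in NEC, as Trpm6 was. The part of kidney RNA in the Trpm6 counts was not tested. Colon markers summed to 28.3, 8.04 and 24.7 CPM and so were lowest where Trpm6 was highest. The related channel-kinase gene Trpm7, expressed in most cells and named here after its values were seen, was at 169, 135 and 182 CPM.

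With TMM scaling the calcium genes did not differ in a common direction. Trpv6 (ENSMUSG00000029868, chromosome 6, 41620624 to 41636405, minus strand), the apical calcium channel, had only 5, 24 and 2 counts, or 0.315, 2.19 and 0.131 CPM. NEC was 6.97-fold above control (2.61 to 23.4), and the ratio of PCI34051+NEC to NEC was 0.0599 (0.00687 to 0.241). With a pseudocount of 4 neither difference reached 2-fold (log2 folds of 0.52 and -0.58). Like Trpm6, this apical channel was highest in the NEC library, but it was scarce in all 3, and it was under 1 CPM in both libraries of the remaining comparison. S100g (ENSMUSG00000040808, chromosome X, 162961992 to 162964599, minus strand), the calcium-carrying calbindin, had 1265, 415 and 852 counts, or 79.6, 37.9 and 55.97 CPM. NEC was 2.10-fold below control (1.88 to 2.35), and PCI34051+NEC was 1.48-fold above NEC (1.31 to 1.66). The first of these, a log2 fold of -1.05, was -0.996 with a pseudocount of 4. S100g is the other X-linked gene of the 10, and its folds against NEC share the limit on sex that holds for every gene.

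Atp2b1 (ENSMUSG00000019943, chromosome 10, 98914406 to 99026143, plus strand), the calcium pump of the basolateral membrane and of most other cells, was at 169.7, 105.2 and 290.1 CPM. It was within 2-fold between NEC and control (log2 fold -0.68) and 2.76-fold higher with PCI34051 than in the NEC library (2.58 to 2.94). Vdr (ENSMUSG00000022479, chromosome 15, 97854425 to 97910630, minus strand), the vitamin D receptor, was at 38.3, 33.5 and 56.2 CPM, within 2-fold in every comparison. Its NEC level was 1.14-fold below control (1.001 to 1.30), at the edge of counting error. With TMM scaling the receptor gene thus varied least of the 10 between NEC and control. The channel and the calbindin that it is known to induce lay on opposite sides of control. Scaled instead to the sum of 12 epithelium markers, as described below, Vdr was at a log2 fold of 0.94. S100g (0.09), Heph (-0.21), Atp2b1 (0.46) and Cybrd1 (0.48) then lay closer to control. Among the enzymes of the hormone, named here after their values were seen, Cyp27b1, which makes the active form, had 2, 25 and 0 counts, and Cyp24a1, the classical receptor target that degrades it, had 0, 6 and 0 counts.

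The sequences before the start sites of Trpv6 and S100g are shown because both genes are textbook vitamin D targets. With TMM scaling their NEC levels lay on opposite sides of control, Trpv6 from 5 and 24 counts and S100g at a log2 fold of -1.05. Scaled to the epithelium markers, Trpv6 was at 1.94 and S100g at 0.09, so the contrast depended on the scaling. In capitals are the matches, on either strand, of AGGTCA, the hexamer bound by many nuclear receptors. The windows are the 250 bases upstream of the RefSeq start sites on GRCm38.p6, both on the minus strand: chr6:41636406-41636655 and chrX:162964600-162964849.
Trpv6: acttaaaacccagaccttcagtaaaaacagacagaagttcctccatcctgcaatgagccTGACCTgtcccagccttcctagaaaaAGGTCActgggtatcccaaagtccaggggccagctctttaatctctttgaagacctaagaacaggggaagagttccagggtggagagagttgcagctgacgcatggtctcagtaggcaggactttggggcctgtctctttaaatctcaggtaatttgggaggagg
S100g: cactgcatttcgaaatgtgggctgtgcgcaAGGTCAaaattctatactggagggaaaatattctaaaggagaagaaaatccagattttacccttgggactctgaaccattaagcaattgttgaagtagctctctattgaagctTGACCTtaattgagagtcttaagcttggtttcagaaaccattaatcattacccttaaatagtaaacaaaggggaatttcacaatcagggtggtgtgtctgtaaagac

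Each window held 2 matches, and of all 32851 RefSeq promoter windows of 300 bases 16.26% held at least 1. The related hexamer GGTTCA stood once in S100g and in 10.39% of all windows, and TGTTCT, a glucocorticoid receptor hexamer, stood once in Trpv6 and in 18.97% of all windows. RefSeq promoter windows were matched for 6 of the 10 genes. Those of Cybrd1, Atp2b1, Vdr and Trpm6 held none of these 3 hexamers. Slc11a2, Slc40a1, Heph and Slc39a4 had no entry.

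The comparison of NEC with control asks what differs in the model, and that of PCI34051+NEC with NEC what differs with the inhibitor. Counted together, 2 of the 10 genes, Trpm6 and Trpv6, were higher in NEC than in control, 5 were lower (S100g, Slc11a2, Slc40a1, Heph and Slc39a4) and 3 were within 2-fold. Of all 14627 measured genes 24.2% were higher and 22.9% lower, 47.1% in all, so a 2-fold difference by itself was common. The median log2 fold was -0.87 for the 10 genes and -0.03 for all genes. Between PCI34051+NEC and NEC, 6 of the 10 were higher (the 4 iron genes, Atp2b1 and Slc39a4) and 2 lower (Trpm6 and Trpv6), where 25% of all genes were higher and 25.6% lower, 50.6% in all. The medians were 1.25 and 0.01. These comparisons share the NEC library, so a low or high value there enters both. Across the 3 libraries 8 of the 10 genes were lowest in NEC (80%), against 43.7% of 14718 genes.

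Between PCI34051+NEC and control, 9 of the genes were measured. Trpm6 and Heph were higher, Slc11a2 was lower and 6 were within 2-fold, with a median log2 fold of 0.49 against -0.00084 for all genes. Of 13652 genes 6.55% were higher and 6.55% lower, 13.1% in all.

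Most of these genes are active in the epithelium, whose 12 markers had a lower sum in the NEC library, so their levels were also read against these markers. Of the 12 markers 8 were lower in NEC than in control and 2 were within 2-fold, where 22.9% of all genes were lower. Krt19 (54.2, 638 and 117 CPM) and Cldn3 (57.5, 155 and 149 CPM) were higher. Scaled to the sum of 12 epithelium markers, the median of all genes moved to 1.04 between NEC and control, with 51.5% of genes higher and 5.77% lower. Of the mineral genes, Slc11a2 (-3.27), Slc40a1 (-3.06) and Slc39a4 (-1.41) were still beyond 2-fold below control, whereas Heph (-0.21) and S100g (0.09) were not. Trpm6 (6.11) and Trpv6 (1.94) were higher, so the split was 2 higher and 3 lower. Between PCI34051+NEC and NEC the median of all genes was -1.07 on this scale, with 4.82% higher and 52.7% lower. Slc40a1 (2.23), Slc39a4 (1.63) and Heph (1.33) were then higher, Trpm6 (-5.08) and Trpv6 (-2.12) lower, and Slc11a2 (0.91), Atp2b1 (0.26) and Cybrd1 (-0.04) within 2-fold.

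**Figure D2:**
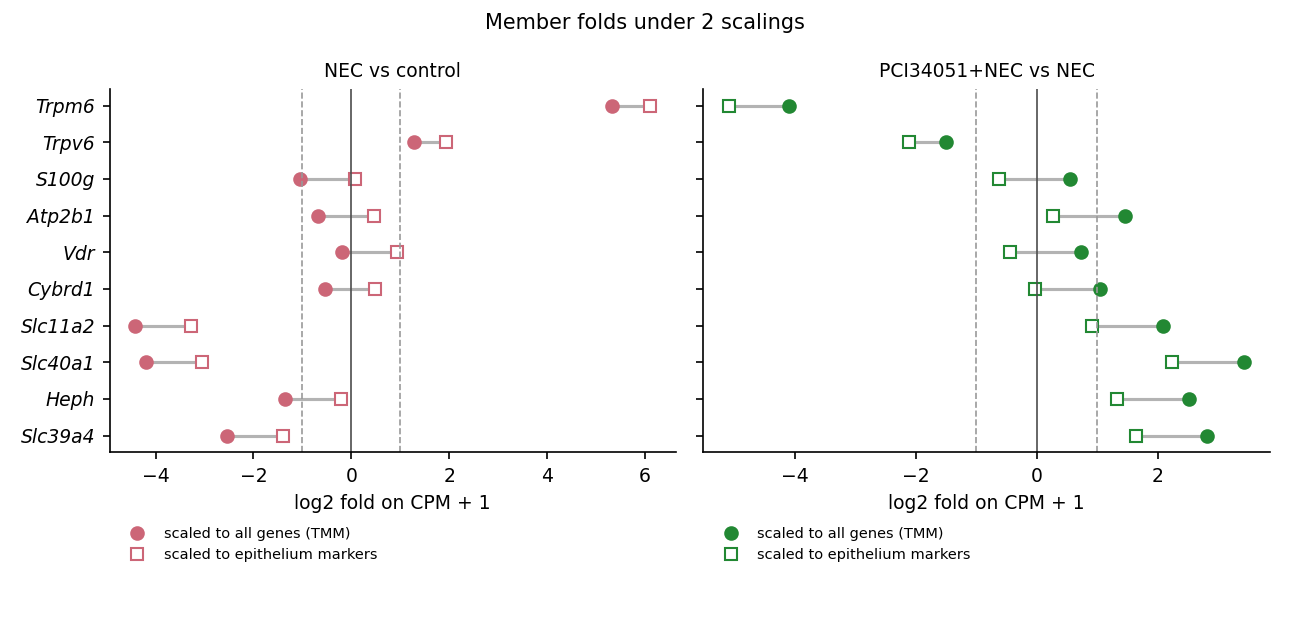
Log2 folds on CPM + 1 of the 10 genes scaled to all genes (TMM, filled circles) and to 12 epithelium markers (open squares), for NEC against control (left) and PCI34051+NEC against NEC (right), with dashed lines at 2-fold. On the epithelium scale Slc11a2 (-3.27), Slc40a1 (-3.06) and Slc39a4 (-1.41) remain beyond 2-fold below control, and S100g lies at 0.09.

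Vil1, the brush border villin and 1 of the 12 epithelium markers, gave a similar reading without any scaling. Per 100 counts of Vil1 there were 95.4, 9.04 and 19.6 counts of Slc11a2. Slc40a1 stood at 98.2, 10.79 and 58.8 counts per 100 of Vil1, and Slc39a4 at 26.2, 9.10 and 32.7. All 3 were thus low in NEC relative to villin. Heph, at 23.0, 18.4 and 53.3, and S100g, at 7.84, 7.71 and 5.70, differed far less from control there, and the intervals of S100g in control (7.40 to 8.30) and NEC (6.96 to 8.52) overlapped. Vdr went the other way, at 3.77, 6.82 and 5.72. Vil1 is 1 gene, and Epcam, an adhesion protein of epithelia, gave another reading. Per 100 counts of Epcam, Slc11a2 was at 35.5, 10.996 and 6.89 and Slc40a1 at 36.5, 13.1 and 20.7, both below control in NEC. Slc39a4, at 9.76, 11.1 and 11.5, was not low in NEC on this measure, and Heph (8.55, 22.4 and 18.7) and S100g (2.91, 9.37 and 2.001) were above control there. Slc11a2 and Slc40a1 were below control in NEC against all genes, the 12 epithelium markers, Vil1 and Epcam. These references overlap, since Vil1 and Epcam are among the 12 markers and Epcam made up 2731 of their 7984 CPM in control. The readings of Slc39a4, Heph and S100g depended on the reference. So did the step of Slc11a2 from NEC to PCI34051+NEC, which was upward relative to Vil1 and downward relative to Epcam.

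Levels of different genes can be compared only per length, here as CPM per kb of the longest coding transcript. In the control library ferroportin led with 296, followed by Slc11a2 with 219, S100g with 166 and Slc39a4 with 96.9 CPM per kb, and each gene in the order differed from the next beyond counting error. In the NEC library the order was another: S100g led with 79.0, Heph followed with 19.1, and then came Slc39a4 (16.3), Slc40a1 (15.7) and Atp2b1 (14.8), where neighbours among these 3 were not separable by counting error. Slc11a2 came after these with 10.1, just above Vdr with 7.67 and Trpm6 with 6.06 CPM per kb. With PCI34051 ferroportin again led, with 172, followed by Slc39a4 (116.7), S100g (116.6) and Heph (110.5), where S100g could not be separated from its neighbours on either side. Slc11a2 came after them with 43.7 CPM per kb.

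The other genes of iron handling were mostly lower in the NEC library as well. Of 20 measured genes of iron uptake, storage and haem, 13 were lower and 2 higher in NEC than in control, with a median log2 fold of -1.41, where 22.9% of all genes were lower. On the epithelium marker scale 5 were lower and 6 higher, with a median of -0.28. On that scale 5.77% of all genes were lower and 51.5% higher, with a median of 1.04. Between PCI34051+NEC and NEC 12 of the 20 iron genes were higher and 2 lower, with a median of 1.66, where 25% of all genes were higher and 25.6% lower. Between PCI34051+NEC and control 3 were higher and none lower, where 6.55% of all genes were higher and 6.55% lower. Ltf, the iron-binding lactoferrin, was at 39.1, 0.457 and 27.6 CPM. Slc46a1, an intestinal folate carrier first described as a haem carrier, was at 94.6, 10.4 and 71.1 CPM. Ncoa4, the receptor that sends ferritin to lysosomes, was at 80.7, 16.7 and 117.7 CPM. Flvcr2, a relative of the haem exporter gene Flvcr1, was within 2-fold between NEC and control (36.7 and 18.2 CPM, log2 fold -0.98) and at 128 CPM with PCI34051.

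The 4 hairpin-bearing genes outside the members were also low in NEC, and differed with PCI34051. Fth1, the ferritin heavy chain, was at 2511, 776 and 2495 CPM, and Ftl1, the light chain, at 5024, 1762 and 2874 CPM. Tfrc, the transferrin receptor, was at 51.3, 19.0 and 27.7 CPM. Epas1, the hypoxia factor HIF-2alpha that is known to drive Slc11a2 and Slc40a1 in enterocytes, was at 74.6, 34.6 and 70.4 CPM. They were named because the search found a hairpin in them. All 4 were beyond 2-fold below control in NEC, as were 65% of the iron list and 22.9% of all genes, and Fth1 and Epas1 were 2-fold higher again with PCI34051. On the epithelium marker scale all 4 were within 2-fold of control in NEC, with log2 folds from -0.54 (Fth1) to 0.05 (Epas1), where the median of all genes was 1.04. In the iron regulation list 3 of 11 measured genes were lower and 1 higher in NEC (median -0.46), where 22.9% of all genes were lower and 24.2% higher. With PCI34051 against NEC 5 were higher and 1 lower (median 0.78), where 25% of all genes were higher and 25.6% lower. Aco1, which encodes an iron regulatory protein, was at 142, 59.4 and 181 CPM, and Fbxl5, which degrades the regulatory proteins when iron is ample, at 109, 93.2 and 284 CPM. Egln3, a hypoxia-induced prolyl hydroxylase, was at 57.7, 16.3 and 71.9 CPM, and Tfr2, an iron sensor of liver and red cell precursors, at 0.315, 6.94 and 0.591 CPM. Hamp, the hepcidin gene, had 7, 4 and 3 counts.

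Among the other zinc genes importers were mostly lower in NEC than in control, while the metallothioneins Mt1 and Mt2 were higher. Of 11 measured SLC39 importers other than Slc39a4, 6 were lower and 1 was higher in NEC than in control, with a median of -1.11. Of all genes 22.9% were lower and 24.2% higher there. With PCI34051 against NEC 6 importers were higher and 1 lower, with a median of 1.58, where 25% of all genes were higher and 25.6% lower. Slc39a11 (57.8, 10.23 and 78.0 CPM) and Slc39a14, which also carries iron (119, 27.1 and 119 CPM), were lowest in NEC. Slc39a9 (85.9, 42.7 and 195 CPM) was just within 2-fold between NEC and control, and Slc39a13, linked to connective tissue, was highest in NEC (13.5, 49.9 and 8.41 CPM). On the epithelium marker scale the medians of the importers were 0.09 and -0.01, where those of all genes were 1.04 and -1.07. Mt1 (478, 1672 and 3978 CPM) and Mt2 (111, 846 and 1787 CPM), which bind zinc and are also induced by glucocorticoids, were higher in both formula-fed libraries. Of the 9 measured zinc exporter and buffering genes 2 were higher and 3 lower in NEC (median -0.06), and 7 were higher with PCI34051 than in NEC (median 1.09). With PCI34051 against control 5 were higher (median 1.03), where 6.55% of all genes were higher. Slc30a2, a vesicular zinc transporter, was at 194, 81.3 and 471 CPM, and Slc30a10, an exporter of manganese, at 58.5, 61.0 and 174 CPM. Slc30a1, the zinc exporter of the plasma membrane in most cells, was listed at 0 counts in all 3 libraries, as was Slc30a4, and whether the counting lost their reads was not tested.

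Calcium and vitamin D genes outside the members went both ways. Of 13 measured calcium genes 4 were higher (30.8%) and 3 lower (23.1%) in NEC than in control, with a median of 0.92. With PCI34051 against NEC 3 were higher and 3 lower (23.1% each), with a median of -0.43. These shares were near those of all genes, 24.2% higher and 22.9% lower in NEC, and 25% higher and 25.6% lower with PCI34051. The calcium pumps Atp2b2 (1.82, 19.7 and 0.920 CPM) and Atp2b4 (34.3, 187 and 98.8 CPM) were highest in NEC, unlike Atp2b1. Claudins of the route between cells differed among themselves. Cldn2, a cation-selective claudin, was at 382, 66.7 and 551 CPM and Cldn12 at 33.4, 8.77 and 36.4 CPM, while Cldn15, named after its values were seen, was higher in NEC than in control, at 9.12, 21.4 and 18.9 CPM. Of 9 vitamin D genes 4 were higher (44.4%) and 3 lower (33.3%) in NEC, with a median of 0.80. With PCI34051 against NEC 4 were higher and 4 lower (44.4% each), with a median of -0.38. Cyp27a1, a vitamin D 25-hydroxylase and bile acid enzyme, was at 9.50, 104.8 and 42.2 CPM. Lrp2, megalin, an endocytic receptor that takes up the vitamin D binding protein, was at 43.9, 4.11 and 13.8 CPM. Gc, the binding protein, was at 1.07, 9.41 and 0.328 CPM.

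The other magnesium genes were for the most part lower in NEC or within 2-fold, unlike Trpm6. Of 14 measured genes of magnesium transport 7 were lower, 6 within 2-fold and 1 higher in NEC than in control, with a median of -1.12. Of all genes 22.9% were lower and 24.2% higher there. On the epithelium marker scale the median of the list was -0.021 and that of all genes 1.04. The higher magnesium gene, named for being so, was Slc41a1 (4.91, 15.3 and 6.44 CPM), also lower again with PCI34051. With PCI34051 against NEC 7 of the list were higher and 1 lower, with a median of 0.80, where 25% of all genes were higher and 25.6% lower. Cldn19, a claudin of magnesium reabsorption in the kidney, was at 22.2, 1.37 and 9.59 CPM. Slc41a3 (20.9, 5.21 and 27.8 CPM) and the magnesium transporter genes Nipa2 (91.8, 23.5 and 109 CPM) and Nipal1 (55.9, 17.6 and 133 CPM) were lowest in NEC.

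**Figure D3:**
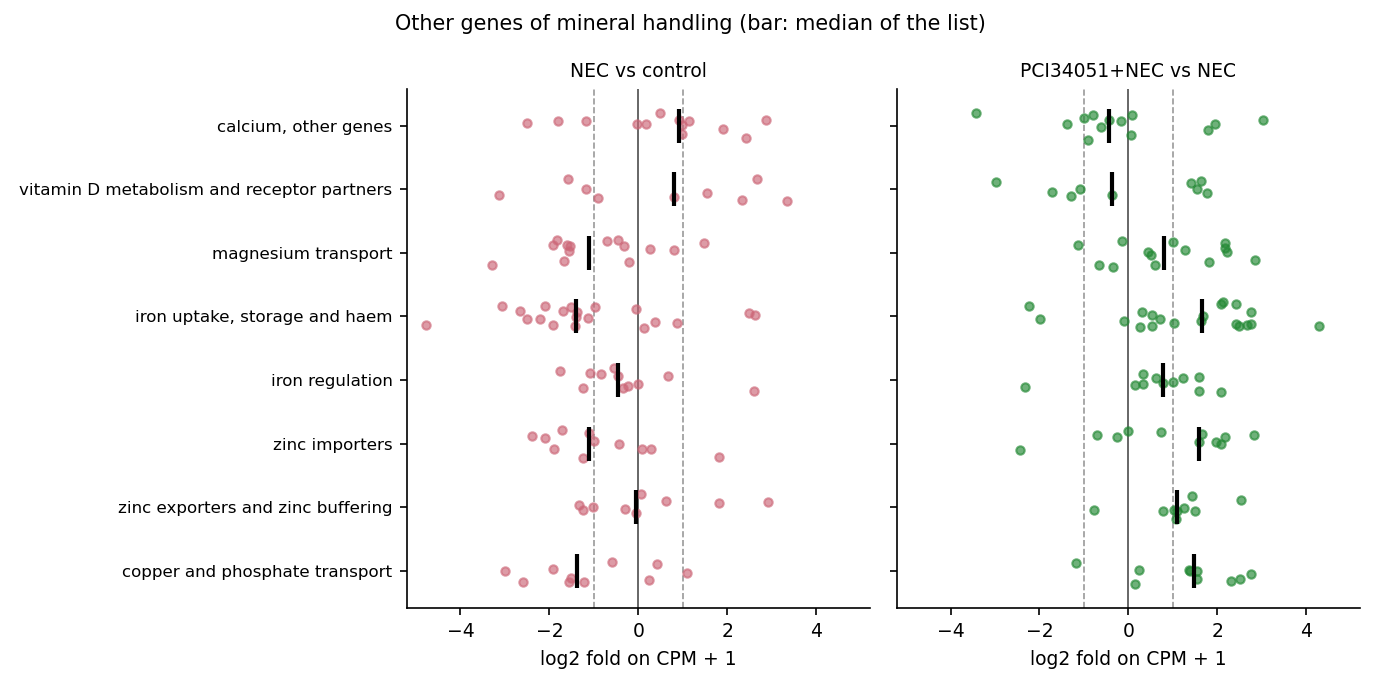
Log2 folds on CPM + 1 of every measured gene of 8 lists of mineral handling, 1 point per gene, for NEC against control (left) and PCI34051+NEC against NEC (right), with a bar at each list's median and dashed lines at 2-fold. The list of iron uptake, storage and haem has its median at -1.41 on the left and 1.66 on the right, and the lists of calcium (0.92 and -0.43) and vitamin D (0.80 and -0.38) have theirs on the other side of 0.

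The genes whose pattern was most like that of a member were sought among 10320 genes at 10 CPM or more in any library, by the Euclidean distance between log2(CPM + 1) values centred on each gene's mean over the 3 libraries. Trpm6 had 1 gene within a distance of 0.25, the receptor gene Ager (3.15, 181 and 8.28 CPM, distance 0.15), and the next was Map3k6 (2.64, 191 and 10.6 CPM). Slc11a2 had none within 0.25, its nearest being Ptprc, which encodes the leukocyte antigen CD45 (21.5, 0.274 and 3.22 CPM), and Tmem206 (70.6, 3.29 and 13.9 CPM). Slc40a1 had 1, Lyplal1 (18.5, 0.0913 and 8.34 CPM), followed by Igfals (41.0, 0.822 and 17.9 CPM). The patterns of these 3 members were thus shared by few genes. Heph had 71 such genes, with Tspan8 nearest (161, 62.0 and 363 CPM) and Acpp next (32.4, 12.1 and 75.7 CPM), and Slc39a4 had 54, with Sowahb (145, 23.8 and 177 CPM) and Trappc4 (34.5, 4.93 and 39.0 CPM) nearest. The remaining 5 members had between 333 (Atp2b1) and 603 (Cybrd1) genes as near, so patterns like theirs on this scale were common in these libraries. For Trpv6, with 334 such genes, the likeness rests on the added 1 CPM, which flattens differences of so low a gene. Its near genes, such as Dvl1 (57.8, 141 and 49.0 CPM), need not share its plain CPM ratios.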

How the data were processed

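Raw read counts per gene symbol were deposited by the authors in 1 table for the 3 libraries. The build was mm10, as the submitters' processing notes name it. Aligner, annotation and strand setting: not given in the sources used here. Overlapping genes may share counts. Of the 3 columns, those of control and NEC carry their samples' names. The remaining column differs in a few letters from its sample's description and was assigned as the only one naming an inhibitor, on which every PCI34051+NEC value rests.

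TMM factors from edgeR 4.0.16 in R 4.3.3 were 1.05, 1.03 and 0.923. A gene was measured at 1 CPM or more in 1 library of a comparison, and folds used a pseudocount of 1 CPM and a 2-fold threshold. Intervals are exact conditional binomial (Clopper-Pearson) at 95%. Reads without molecular identifiers may be PCR copies, which these intervals do not cover. The floor for a count of 0 was 3 counts per library (0.189, 0.274 and 0.197 CPM). With 1 library per group no test, standard error or p-value was possible. Positions, transcripts and lengths came from GENCODE M21, which held 21926 of the 21983 symbols, and promoter windows from RefSeq. The members and gene lists were chosen with earlier results of these data known. All members are named, with up to 4 genes per list of largest fold at 5 CPM or more and the 2 genes nearest each member; exceptions are marked in the text. Folds were computed on simulated counts in which only a small share of genes differed. That checks the calculation and not the scaling of the real NEC library. The alternatives changed the scaling (DESeq2 1.42.0 size factors, library totals, epithelium markers, TMM leaving out the 50 most abundant and mitochondrially encoded genes, TMM leaving out NEC), the pseudocount (0.25 and 4), the filter (none and 5 CPM), the depth (10650638 counts in each), the threshold (1.5-fold, or a counting interval wholly beyond 2-fold) and the trend with GC content and length (30 bins). Python 3.11.15 was used.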

Additional observations from a re-analysis of the deposited data

How the results depend on the processing

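With 1 library per group, depth bounds only the values of single libraries, and Trpv6 with 2 to 24 counts was the least certain. No paired analysis was possible because each group has 1 library. Of 105 counts and medians over the 10 genes under the alternatives 93 stayed within 1.5 times (counts) or the counting interval (medians), and 12 moved further. Of 296 single folds 251 stayed within their counting interval, 43 moved and 2 reversed. Of 840 counts and medians of the other lists 714 stayed, 123 moved and 3 reversed. Under epithelium scaling 3 genes were lower in NEC than in control (median 0.27) and 3 were higher with PCI34051 than in NEC (median 0.11), S100g was at 0.085 in the first comparison and Cybrd1 at -0.035 in the second. The medians of the zinc importers were then 0.0927 and -0.010, and that of the zinc exporters was -0.058 between PCI34051+NEC and NEC. Those of all genes on that scale were 1.04 between NEC and control and -1.07 between PCI34051+NEC and NEC. A pseudocount of 4 and a minimum of 5 CPM each left 1 gene higher in NEC than in control, 1 lower with PCI34051 than in NEC and 1 higher with PCI34051 than in control. Total counts also left 1 higher in that last comparison, with the median of all genes at -0.18, and a 1.5-fold threshold made 2 lower. Of the calls, Trpv6 lost both with a pseudocount of 4, S100g its one against control (-0.996) and Trpm6 that of PCI34051+NEC against control (0.43), Heph lost its call against control with total counts (0.97), and Cybrd1 lost its own between PCI34051+NEC and NEC with total counts, a pseudocount of 4 and the GC content and length trend removed. Slc11a2 against control ranged from -4.45 to -3.27, Slc40a1 from -4.24 to -3.06 and Trpm6 from 3.44 to 7.31.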

Other observations

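Copper and phosphate transport, described by a further list of 10 genes, resembled the iron and zinc importers. In the NEC library 6 of the 10 were at least 2-fold lower than in control and 1 was higher, where 22.9% of all genes were lower and 24.2% higher. The median log2 fold of the list was -1.37, or -0.26 on the scale of the epithelium markers, where that of all genes was 1.04. With PCI34051 against NEC 7 were higher and 1 was lower, with a median of 1.47, where 25% of all genes were higher and 25.6% lower. Against control 1 of 9 measured genes was higher and none was lower, where 6.55% of all genes were higher and 6.55% lower. Slc34a2, the sodium-phosphate carrier of the small intestine, was at 563 CPM in the control, 70.0 CPM in the NEC and 477 CPM in the PCI34051+NEC library. Slc31a1, the copper importer, was at 319, 52.1 and 299 CPM. Of the copper export pumps, Atp7a was at 5.60, 3.38 and 20.5 CPM, within 2-fold between NEC and control, and Atp7b at 18.4, 4.11 and 13.9 CPM. These values rest on the same NEC library as the rest.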
